A study of Mus musculus with 6 samples.

Results

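The classical complement pathway was followed here in lung tumour fibroblasts through 10 genes. They were the C1 protease genes C1ra, C1rb, C1s1 and C1s2, the C1r-like gene C1rl, C2, and the C4 copies C4a and C4b. The others were the lectin pathway protease gene Masp1, and Serping1, which encodes C1 inhibitor. All 10 were taken by symbol from the 55298 genes in the files. The libraries came from cancer-associated fibroblasts (CAFs) of orthotopic lung tumours in wild-type C57BL/6 mice over 8 weeks old. Antigen-presenting CAFs (apCAFs, libraries 1, 2 and 3) carried surface MHC class II, and nonapCAFs (libraries 4, 5 and 6) did not. Both were sorted by flow cytometry from the same pooled tumours in independent experiments, as large cells positive for PDPL, read here as podoplanin, and PDGFRa and negative for CD45, CD31, EPCAM and mCherry. A library therefore stands for pooled tumours and not for 1 animal, and the labels do not say which apCAFs library shares an experiment with which nonapCAFs library. The values are the authors' normalized counts, which they rounded, and the sequencing depth behind them is unknown.

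The classical pathway starts when C1q binds antibody on antigen, or other targets, and activates the proteases bound to it. C1r cleaves and activates C1s, and C1s then cleaves C4 and C2, whose fragments together form the enzyme that cuts C3. C1 inhibitor is a serpin that inactivates C1r and C1s. The liver supplies most of these proteins in blood, and fibroblasts are among the cells known to make C1r, C1s and C1 inhibitor themselves.

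In the mouse, C1r, C1s and C4 are each encoded by a pair of near-identical genes, so a short read may fit both copies. In GENCODE M21 the longest transcripts of C4b and C4a were 96.1% identical over the aligned bases, with an identical run of up to 433 bases. C4a encodes the sex-limited protein, known as a form of C4 without haemolytic activity, and the files give this gene the biotype lncRNA. C1ra and C1rb were 98.0% identical, with a run of 757 bases, and C1s1 and C1s2 were 95.9% identical, with a run of 229 bases. The stretches below are shown because they hold the most differences within any 120 aligned bases of each pair, and capitals mark the bases that differ or are missing in the partner.
C4b, mm10 chr17:34736311-34736522, minus strand, exons 17 and 18 joined: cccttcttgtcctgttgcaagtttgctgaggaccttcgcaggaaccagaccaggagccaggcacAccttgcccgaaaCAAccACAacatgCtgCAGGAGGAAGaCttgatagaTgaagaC
C4a, mm10 chr17:34816967-34817169, minus strand, exons 17 and 18 joined: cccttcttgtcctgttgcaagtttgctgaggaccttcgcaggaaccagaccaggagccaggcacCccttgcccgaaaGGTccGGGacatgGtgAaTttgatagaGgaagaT
C1ra, mm10 chr6:124522293-124522412, plus strand, exon 11: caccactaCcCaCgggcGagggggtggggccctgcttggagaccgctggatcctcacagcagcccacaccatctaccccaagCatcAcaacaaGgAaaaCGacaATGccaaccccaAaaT
C1rb, mm10 chr6:124580342-124580458, plus strand, exon 11: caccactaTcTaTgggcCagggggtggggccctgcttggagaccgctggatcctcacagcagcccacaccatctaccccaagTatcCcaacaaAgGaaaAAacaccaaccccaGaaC
C1s1, mm10 chr6:124531447-124531566, minus strand, exon 12: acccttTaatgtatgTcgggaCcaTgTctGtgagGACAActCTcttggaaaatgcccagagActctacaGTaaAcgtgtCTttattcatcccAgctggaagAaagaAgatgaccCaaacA
C1s2, mm10 chr6:124625669-124625788, minus strand, exon 11: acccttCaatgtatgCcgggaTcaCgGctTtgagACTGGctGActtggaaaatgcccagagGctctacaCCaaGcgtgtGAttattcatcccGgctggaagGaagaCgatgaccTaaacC
The C4 stretches differed at 21 positions, 9 of them bases missing from C4a, the C1r stretches at 15, with 3 bases missing from C1rb, and the C1s stretches at 24. Elsewhere the copies were harder to tell apart. Of all 50-base words in C4b, 35.2% also occurred in C4a. The share was 48.0% for C1ra words in C1rb, 59.2% for C1rb words in C1ra, 24.3% for C1s1 words in C1s2 and 26.9% for C1s2 words in C1s1. The authors' handling of reads that fit several genes is not given in the sources used here, so the split between the copies of a pair is uncertain, for each of these 6 genes.

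The 2 groups were checked against the genes of the sort before the comparison. H2-Aa, which encodes an MHC class II chain, read 11556, 12693 and 22115 in apCAFs and 207, 252 and 187 in nonapCAFs, as the gate on class II fixes. Both groups were gated positive for the proteins of Pdpn and Pdgfra, and both genes had higher values in apCAFs. Pdpn read 8589, 8582 and 16492 in apCAFs and 1538, 1848 and 1451 in nonapCAFs (log2 2.73, limma adjusted p = 0.0183). Pdgfra read 40769, 43116 and 89023 in apCAFs and 17628, 17653 and 21525 in nonapCAFs, without overlap, but did not pass (log2 1.52, limma adjusted p = 0.0855). DESeq2, in the authors' deposited table, gave Pdgfra an adjusted p of 2.81e-06. The part of these differences in the complement values was not tested. Of the genes behind the negative gates, Ptprc and Pecam1 stayed at or under 129 in all 6. Epcam read 181, 209 and 21 in apCAFs and 13, 3 and 5 in nonapCAFs. Libraries within a group were not equally alike. Over the 17829 genes averaging 100 or more, the log2 ratio of apCAFs 1 to apCAFs 2 had an SD of 0.238 and that of nonapCAFs 4 to nonapCAFs 5 an SD of 0.246, while the SD was 0.479 to 0.708 for pairs that included apCAFs 3 or nonapCAFs 6. apCAFs 3 and nonapCAFs 6 thus stood apart, and whether the close pairs are separate experiments is not given. Results below are therefore also given for these libraries on their own. In these bulk samples, fewer cells of a type and less RNA per cell cannot be told apart.

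Of the 10 genes, 9 were higher in apCAFs, by 2.68-fold to 5.56-fold, and Masp1 did not pass the test. Folds are taken from means on the log2 scale, so they differ a little from the ratio of the means printed. Of all 36443 genes tested, 4.4% were called, 3.91% higher in apCAFs and 0.486% lower, in limma on log2(value + 1) at an adjusted p under 0.05. The same 9 genes had every apCAFs library above every nonapCAFs library, which held for 17.1% of all genes tested and for 25.5% of the genes averaging 100 or more. The median log2 fold change of the 10 genes was 2.06, beside -0.04 over all genes tested. The adjusted calls rested on which libraries were fitted: 9 of 10 were called without apCAFs 3, 3 without nonapCAFs 6, 1 without apCAFs 1, and 0 in limma without apCAFs 2, nonapCAFs 4 or nonapCAFs 5, while 9 had an unadjusted p under 0.05 in each of these fits. Over all genes in the fits with 1 library left out, 310 to 1791 were called. In these fits 5173 to 7327 of 35644 to 35948 genes had an unadjusted p under 0.05. With each close pair averaged to 1 value, or with all 55298 genes tested, limma called 0 of 10, again with 9 at an unadjusted p under 0.05. Over all genes, averaging gave 0 called and 4706 of 36443 at an unadjusted p under 0.05, and testing all 55298 gave 436 and 8465. In the authors' deposited table, DESeq2 gave the 9 genes adjusted p-values between 4.96e-23 for C2 and 2.81e-10 for C1rl, in a table where 20.6% of 19255 genes with an adjusted p were called higher, and gave Masp1 0.221.

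**Figure D1:**
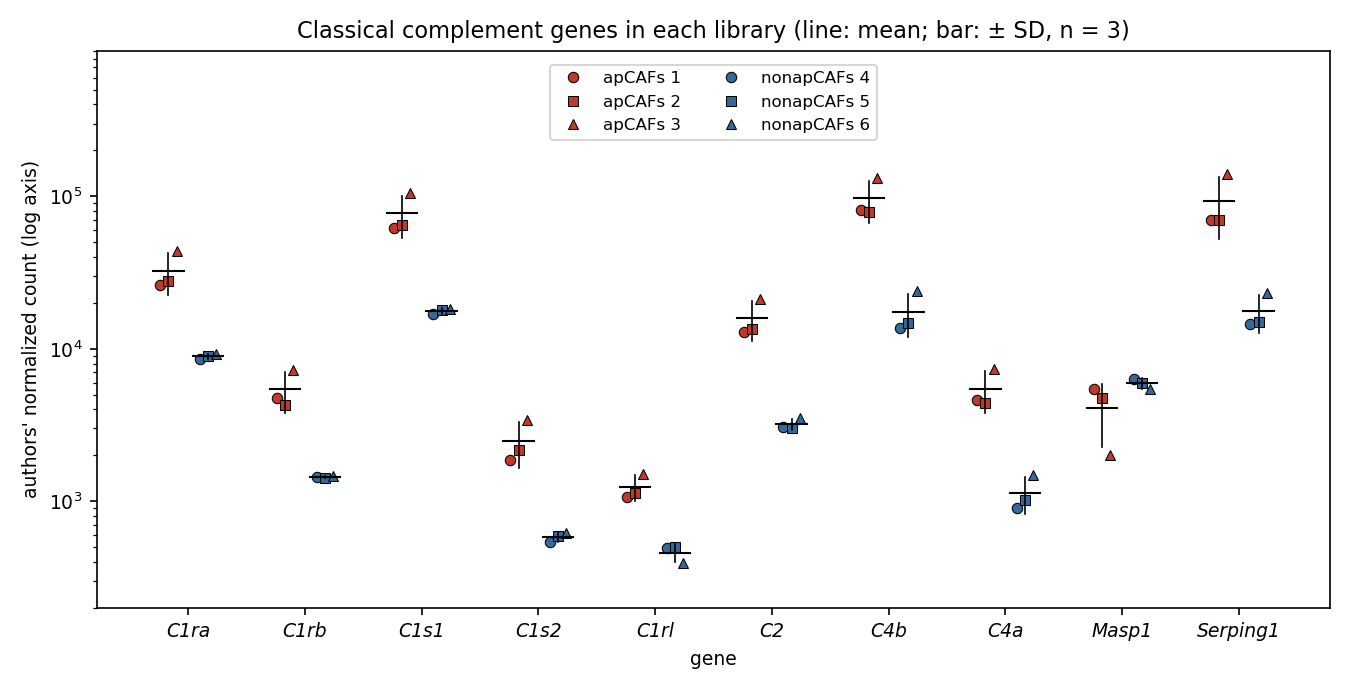
The authors' normalized count of each of the 10 genes in every library, on a log axis, with apCAFs 1, 2 and 3 (red) left of nonapCAFs 4, 5 and 6 (blue); lines are means and bars are ± SD (n = 3). The 2 groups do not overlap for 9 genes, apCAFs 3 is the highest library for each of these, and for Masp1 apCAFs 3 is the lowest.

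C1ra encodes the main C1r, the protease that activates itself and then C1s. It lies on chromosome 6 from 124512405 to 124523443 (mm10, plus strand). The values were 26025, 27717 and 44018 in apCAFs 1, 2 and 3, against 8594, 8929 and 9287 in nonapCAFs 4, 5 and 6. apCAFs 3 was the highest library, the nonapCAFs libraries lay close together, and the groups did not overlap. The means were 32587 ± 9936 in apCAFs and 8937 ± 347 in nonapCAFs (SD, n = 3 each), 3.54-fold higher in apCAFs (log2 1.83, SE 0.24, limma adjusted p = 0.0244).

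Its copy C1rb, on chromosome 6 from 124570294 to 124581171 (plus strand), had 4724, 4262 and 7306 in apCAFs, against 1438, 1418 and 1454 in nonapCAFs. The nonapCAFs libraries were nearly equal, and the lowest apCAFs library was well above them. C1rb averaged 5431 ± 1640 in apCAFs and 1437 ± 18.0 in nonapCAFs (SD, n = 3 each), 3.67-fold higher in apCAFs (log2 1.88, SE 0.24, limma adjusted p = 0.0228). Because 59.2% of its 50-base words also occur in C1ra, part of this value may be reads of C1ra, and this was not tested.

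C1s1 encodes the main C1s, the protease that cleaves C4 and C2, and lies on chromosome 6 from 124530345 to 124542359 (minus strand). It was among the most abundant of the 10 genes, with 61865, 65081 and 104497 in apCAFs, against 16778, 18007 and 18285 in nonapCAFs. No library of one group came near those of the other. The means were 77148 ± 23740 in apCAFs and 17690 ± 802 in nonapCAFs (SD, n = 3 each), 4.24-fold higher in apCAFs (log2 2.08, SE 0.24, limma adjusted p = 0.0191).

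C1s2, on chromosome 6 from 124624625 to 124636085 (minus strand), is the less abundant C1s copy. Its values were 1870, 2161 and 3433 in apCAFs, against 542, 590 and 623 in nonapCAFs, again with apCAFs 3 highest and no overlap. It averaged 2488 ± 831 in apCAFs and 585 ± 40.7 in nonapCAFs (SD, n = 3 each), 4.11-fold higher in apCAFs (log2 2.04, SE 0.26, limma adjusted p = 0.0236). Because 26.9% of its 50-base words also occur in C1s1, part of this value may be reads of C1s1, and this was not tested.

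C1rl encodes a C1r-like protease that is known, from human, to cleave the haptoglobin precursor. On chromosome 6 from 124493113 to 124510643 (plus strand), it had 1071, 1133 and 1518 in apCAFs, against 490, 500 and 391 in nonapCAFs. apCAFs 3 was the highest library and nonapCAFs 6 the lowest. C1rl averaged 1241 ± 242 in apCAFs and 460 ± 60.3 in nonapCAFs (SD, n = 3 each). At 2.68-fold, this was the smallest difference among the 9 called genes (log2 1.42, SE 0.21, limma adjusted p = 0.0292), and with quantile normalization it missed the threshold (log2 1.22, limma adjusted p = 0.0505).

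C4b, C4a and C2 were higher in apCAFs as well. C4b is the mouse gene for complement C4 itself, whose larger fragment attaches to surfaces, and it lies on chromosome 17 from 34728380 to 34743882 (minus strand). It had 80953, 78467 and 130830 in apCAFs, against 13656, 14851 and 23846 in nonapCAFs. apCAFs 3 and nonapCAFs 6 were each the highest of their group, and the groups stayed far apart. The means were 96750 ± 29540 in apCAFs and 17451 ± 5570 in nonapCAFs (SD, n = 3 each), the largest fold among the 10 genes at 5.56 (log2 2.47, SE 0.32, limma adjusted p = 0.0240).

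C4a, on chromosome 17 from 34809092 to 34823464 (minus strand), is the less abundant C4 copy. It had 4597, 4397 and 7411 in apCAFs, against 903, 1015 and 1484 in nonapCAFs. It averaged 5468 ± 1685 in apCAFs and 1134 ± 308 in nonapCAFs (SD, n = 3 each), 4.79-fold higher in apCAFs (log2 2.26, SE 0.30, limma adjusted p = 0.0251). Because its transcript shares 35.2% of its 50-base words with C4b, part of this value may be reads of C4b, and this was not tested.

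C2 supplies the protease of the enzyme that cuts C3, and lies on chromosome 17 from 34862604 to 34898265 (minus strand). Its values were 12876, 13500 and 21275 in apCAFs, against 3070, 3011 and 3524 in nonapCAFs. The nonapCAFs libraries lay close together and the groups did not overlap. C2 averaged 15884 ± 4679 in apCAFs and 3202 ± 281 in nonapCAFs (SD, n = 3 each), 4.84-fold higher in apCAFs (log2 2.28, SE 0.24). Its limma adjusted p of 0.0173 was the smallest of the 10, and C2 was the gene still called without apCAFs 1.

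Masp1 encodes proteases of the lectin pathway, the arm of complement that starts from sugar-binding proteins. It lies on chromosome 16 from 23449417 to 23520815 (minus strand), and a gene value does not separate its alternative products. It had 5466, 4781 and 2015 in apCAFs, against 6357, 6006 and 5422 in nonapCAFs. apCAFs 3 was far below the other 5 libraries, and apCAFs 1 lay just above nonapCAFs 6, so the groups overlapped. Masp1 averaged 4087 ± 1827 in apCAFs and 5928 ± 472 in nonapCAFs (SD, n = 3 each), and the difference did not pass (log2 -0.66, SE 0.41, limma adjusted p = 0.425). Without apCAFs 3 the difference was smaller (log2 -0.21, SE 0.13, limma adjusted p = 0.443).

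Serping1, the C1 inhibitor gene, lies on chromosome 2 from 84765387 to 84775444 (minus strand). It had 69842, 69370 and 140879 in apCAFs, against 14612, 15048 and 23219 in nonapCAFs. The value in apCAFs 3 was 2.02 times the mean of apCAFs 1 and 2, and nonapCAFs 6 was 1.57 times the mean of nonapCAFs 4 and 5, but no library of one group reached the other. The means were 93364 ± 41150 in apCAFs and 17626 ± 4848 in nonapCAFs (SD, n = 3 each), 5.11-fold higher in apCAFs (log2 2.35, SE 0.37, limma adjusted p = 0.0350).

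**Figure D2:**
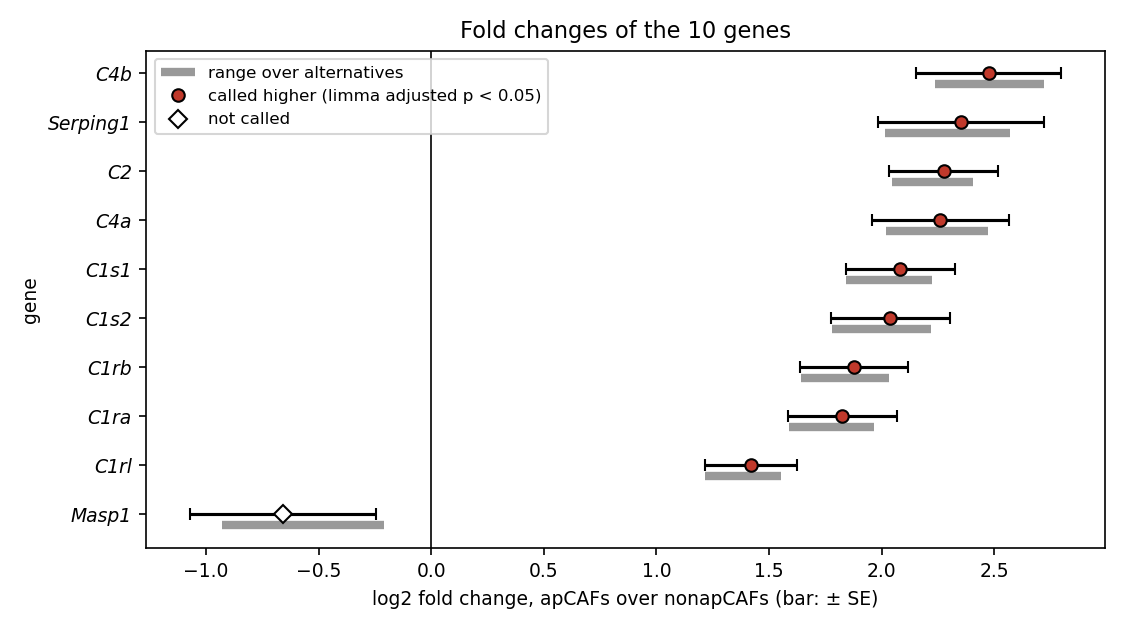
Log2 fold change of each gene, apCAFs over nonapCAFs, with its SE (n = 3 per group); grey bars give the range over 18 other ways of fitting or choosing the libraries. Point estimates of the 9 called genes lie between 1.42 and 2.47 and the lowest end of their grey bars is 1.22, while that of Masp1 runs from -0.93 to -0.21.

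The size of the difference was also read separately for the close libraries and for those that stood apart. For C4b the log2 ratio was 2.48 for apCAFs 1 and 2 over nonapCAFs 4 and 5, and 2.46 for apCAFs 3 over nonapCAFs 6. C4a had 2.23 for the close libraries and 2.32 for the libraries that stood apart. For the C1 protease genes, apCAFs 1 and 2 over nonapCAFs 4 and 5 gave 1.62 for C1ra, 1.65 for C1rb, 1.87 for C1s1 and 1.83 for C1s2. The libraries that stood apart gave larger ratios, of 2.24 for C1ra, 2.33 for C1rb, 2.51 for C1s1 and 2.46 for C1s2. The close libraries gave 1.15 for C1rl, 2.12 for C2, 2.23 for Serping1 and -0.27 for Masp1, and the libraries that stood apart gave 1.95 for C1rl, 2.59 for C2, 2.60 for Serping1 and -1.43 for Masp1. All 10 genes had the same sign in both sets of libraries. For the 9 genes whose groups did not overlap, any such split must give this sign, so it adds no support. The sets themselves were chosen from the likeness of the libraries in these data. Since apCAFs 3 over nonapCAFs 6 is 1 library against 1, the size of that ratio has no replicate check.

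Divided by the length of the longest transcript, the levels set the inhibitor first. Serping1 had 52808 per kb on average in apCAFs and 9970 in nonapCAFs. Next came C1s1, with 26187 per kb in apCAFs and 6005 in nonapCAFs, and C4b, with 17987 in apCAFs and 3244 in nonapCAFs. C1ra had 10931 per kb in apCAFs and 2998 in nonapCAFs, and C2 had 6014 in apCAFs and 1212 in nonapCAFs. The other 5 genes were lower in apCAFs than these, with 2236 per kb for C1rb, 1018 for C4a, 935 for C1s2, 765 for Masp1 and 412 for C1rl in apCAFs. In nonapCAFs the same 5 genes had 591 per kb for C1rb, 211 for C4a, 219.8 for C1s2, 1109 for Masp1 and 153 for C1rl. Neighbours in the apCAFs order whose ranges over the 3 libraries overlapped were C1s1 with C4b, C4b with C1ra, C4a with C1s2, C1s2 with Masp1 and Masp1 with C1rl. In nonapCAFs, Masp1 came between C2 and C1rb on the per-kb scale, its range overlapping that of C2, and C4b overlapped with C1ra and C4a with C1s2.

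Ratios between the genes within a library were compared because a scaling factor of the library cancels in them. C1s1 over C1ra was 2.38, 2.35 and 2.37 in apCAFs 1, 2 and 3, against 1.95, 2.02 and 1.97 in nonapCAFs 4, 5 and 6. This ratio had the narrowest spread of the 6 within nonapCAFs on the log2 scale, and its groups did not overlap (log2 difference 0.26, exact two-sided permutation p = 0.1, 0.2 adjusted over 6 ratios). The ratio C4b over C4a was 17.6, 17.8 and 17.7 in apCAFs, against 15.1, 14.6 and 16.1 in nonapCAFs (log2 difference 0.21, exact permutation p = 0.1, adjusted 0.2). With 3 against 3 libraries, 0.1 is the smallest p this test allows, so no ratio could pass 0.05.

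The other pairs of copies kept similar ratios. C1s1 over C1s2 was 33.1, 30.1 and 30.4 in apCAFs, against 30.9, 30.5 and 29.3 in nonapCAFs, with overlap between the groups (log2 difference 0.04, exact permutation p = 0.6, adjusted 0.7). For C1ra over C1rb the values were 5.51, 6.50 and 6.02 in apCAFs, against 5.97, 6.29 and 6.38 in nonapCAFs, again with overlap (log2 difference -0.05, exact permutation p = 0.7, adjusted 0.7). These p-values do not show that the ratios are equal. As 59.2% of C1rb words occur in C1ra and 26.9% of C1s2 words in C1s1, shared reads may enter both copies. Their part in these ratios was not tested. Read the other way, C1s2 stood at 3.02% to 3.41% of C1s1 over the 6 libraries.

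The proteases were set against their inhibitor in the same way. The ratio C1ra over Serping1 was 0.373, 0.400 and 0.312 in apCAFs, against 0.588, 0.593 and 0.400 in nonapCAFs. apCAFs 2 and nonapCAFs 6 were level to 3 digits, with nonapCAFs 6 the higher by a hair (log2 difference -0.53, exact permutation p = 0.1, adjusted 0.2). C1s1 over Serping1 was 0.886, 0.938 and 0.742 in apCAFs, against 1.15, 1.20 and 0.787 in nonapCAFs, and here the groups overlapped (log2 difference -0.27, exact permutation p = 0.3, adjusted 0.45). In both ratios apCAFs 3 and nonapCAFs 6 were the lowest of their group.

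**Figure D3:**
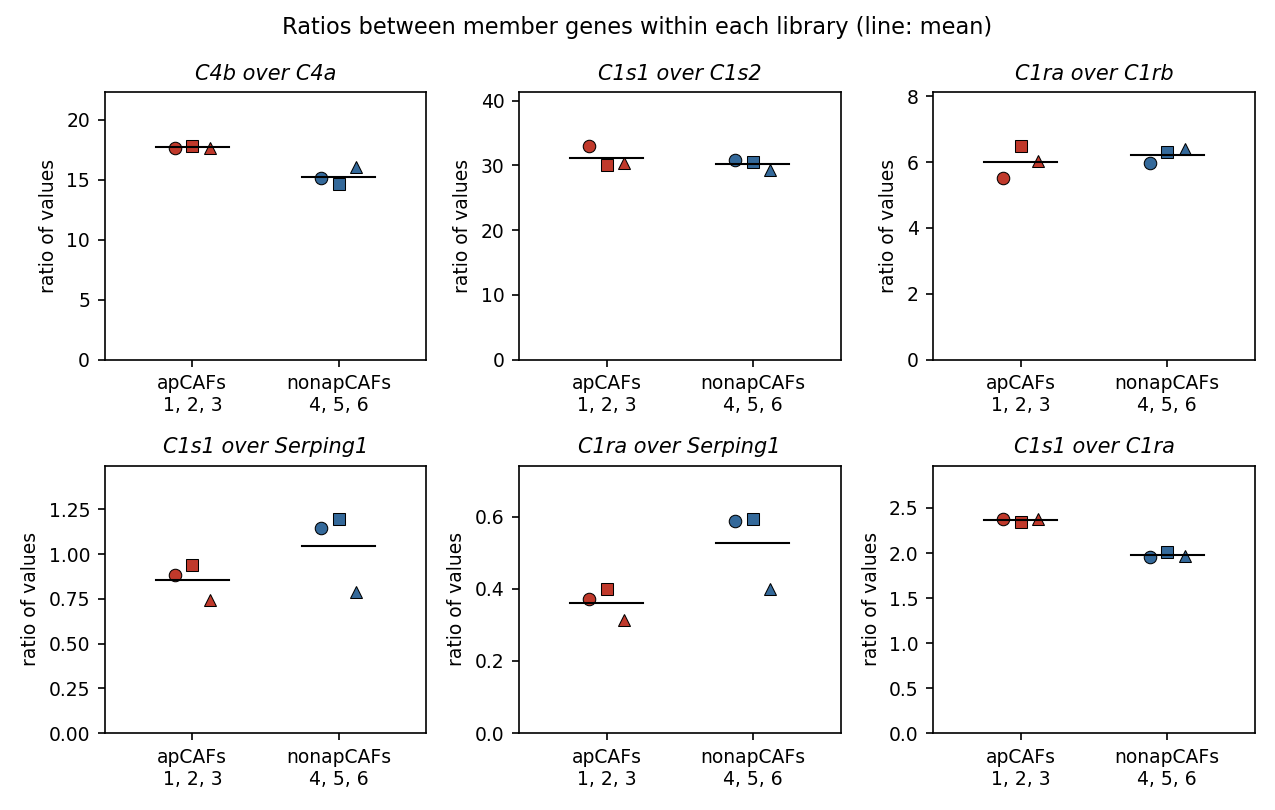
Ratio of the values of 2 genes within each library, for 6 pairs of genes, with apCAFs 1, 2 and 3 (red) left of nonapCAFs 4, 5 and 6 (blue); lines are means, and every axis starts at 0. C1s1 over C1ra runs from 2.35 to 2.38 across apCAFs and from 1.95 to 2.02 across nonapCAFs, whereas C1s1 over C1s2 and C1ra over C1rb overlap between the groups.

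Of the 9 higher genes, 8 lie in 2 stretches of the genome, and their neighbours were looked at after the members' values had been seen. C1rl, C1ra, C1s1, C1rb and C1s2 span 143 kb of chromosome 6. Within this span and 100 kb to either side, 3 of 13 other tested genes were called higher in limma and 0 lower, with 0 lower at an unadjusted p under 0.05. Lpcat3, outside the span, lay higher at an unadjusted limma p of 0.00905 but was not called (log2 0.63). Of the 3 called, Gm16567 is antisense to C1s1 and all of its 576 exonic bases lie inside C1s1 exons. It had 17761, 18525 and 30836 in apCAFs, against 4816, 5135 and 5343 in nonapCAFs, which is 28.5% to 29.5% of C1s1 in all 6 libraries. Whether the authors counted by strand is not given, so reads of C1s1 and Gm16567 cannot be told apart. Gm18840, an unprocessed pseudogene, had 693, 717 and 1006 in apCAFs, against 191, 183 and 249 in nonapCAFs. Of its 50-base words, 28.7% also occur in C1ra and 17.9% in C1rb. Gm44096, antisense to C1rl with no shared exonic bases, had 12, 9 and 23 in apCAFs and 0 in each nonapCAFs library.

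C4b, C4a and C2 span 169.9 kb of chromosome 17, in the part of the major histocompatibility complex that lies between the class II and class I genes. Of 34 other genes tested in this span and 100 kb to either side, 3 were called higher in limma and 0 lower, with 0 lower at an unadjusted p under 0.05. The 3 are Cfb, Gm20547 and Mir6972, and all 3 lie next to or within C2 and Cfb. Outside the span, Cyp21a2-ps, Gm20481, Hspa1a and Hspa1b were not called but lay higher at an unadjusted limma p under 0.05. Their log2 fold changes were 3.15 for Cyp21a2-ps, 2.29 for Gm20481, 2.18 for Hspa1a and 1.63 for Hspa1b, without overlap of the groups. Cfb encodes factor B, the alternative pathway counterpart of C2, and had 55039, 55031 and 87588 in apCAFs, against 7574, 8064 and 7666 in nonapCAFs (log2 3.05, SE 0.23, limma adjusted p = 0.00981). Gm20547 is annotated on the same strand across both genes and shares 1656 exonic bases with C2, or 42.8% of those of C2, and 2246 with Cfb. It had 61081, 61835 and 98082 in apCAFs, against 8965, 9276 and 9392 in nonapCAFs, so C2 reads that fall in the shared bases may have been counted there or dropped, and this was not tested. Zbtb12, on the other strand, shares 161 exonic bases with C2 and had 2403, 2405 and 1424 in apCAFs, against 2754, 2801 and 2776 in nonapCAFs. Gene bodies between C4b and C2 other than these did not pass the test.

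**Figure D4:**
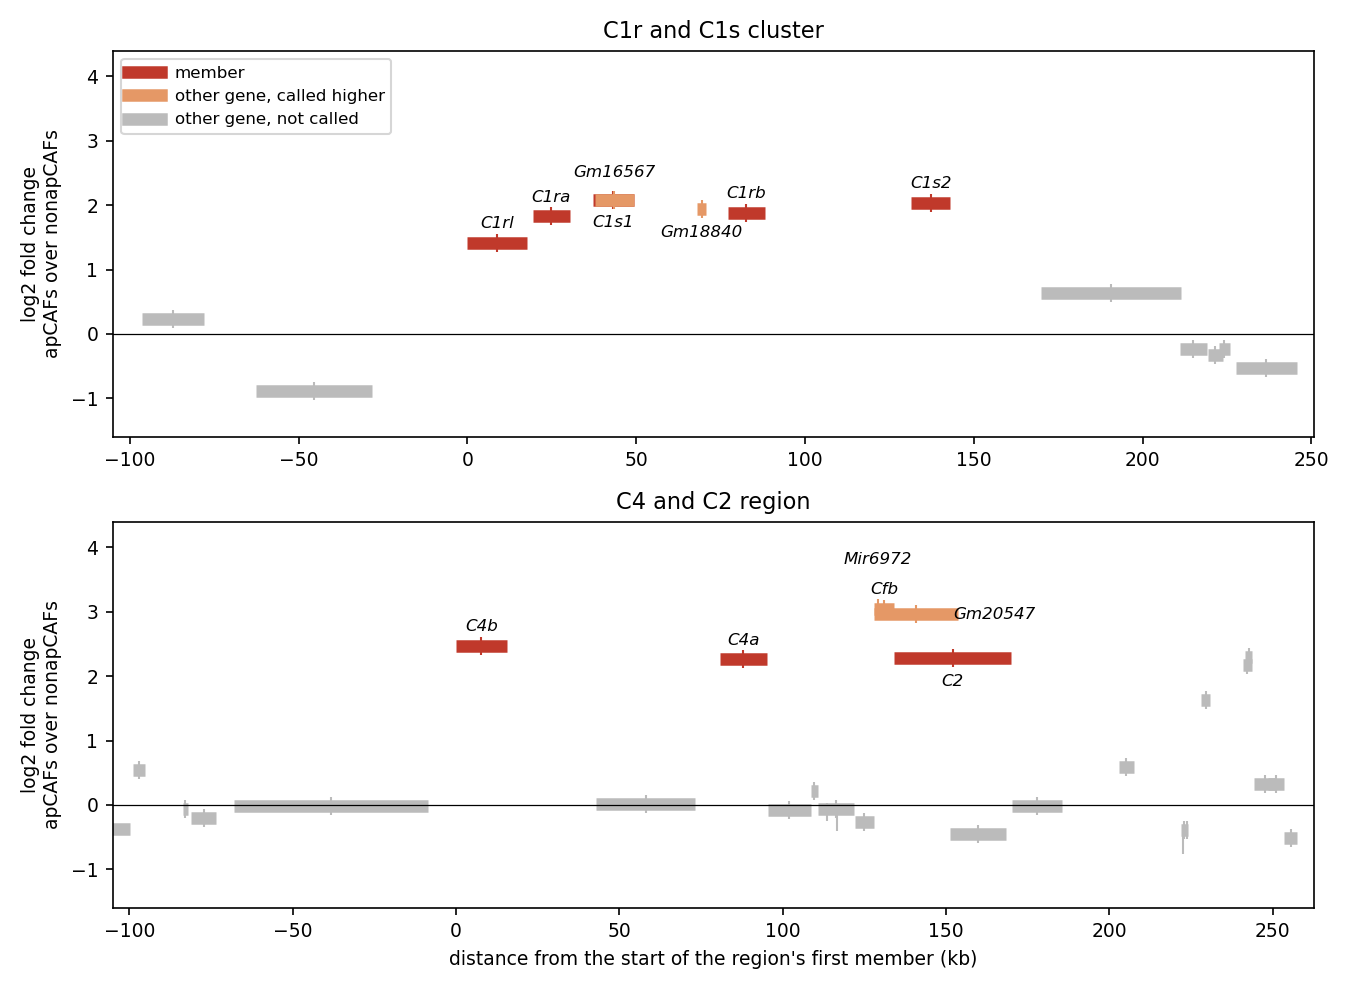
Log2 fold change, apCAFs over nonapCAFs, of the genes averaging 100 or more around the C1r and C1s cluster (top) and the C4 and C2 region (bottom), each drawn over its length in kb from the start of the first member. The members (red) lie at 1.42 or above, and the other called genes (orange) are Gm16567 and Gm18840 in the first region and Cfb, Gm20547 and Mir6972 in the second. Of the genes that were not called (grey), Gm20481, Hspa1a and Hspa1b in the second region also lie above 1.42, at 2.29, 2.18 and 1.63.

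Masp1 and the other genes that overlap it have no exonic bases in common. Rtp4, on the other strand, was called higher, with 3073, 3215 and 4174 in apCAFs, against 1680, 1596 and 1691 in nonapCAFs (log2 1.06, SE 0.17, limma adjusted p = 0.0371). The lncRNA Gm45338 had 125, 131 and 40 in apCAFs, against 164, 173 and 194 in nonapCAFs, with apCAFs 3 lowest as for Masp1 (limma adjusted p = 0.319). The pseudogene Gm49514 read 3 in nonapCAFs 4 and 0 in the other 5 libraries.

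The bases before the start of transcription were read for the members in the RefSeq promoter table (GRCm38.p6), which matched 5 of the 10: C1ra, C1rb, C1rl, C1s1 and C1s2. The 250 bases before the start of the C1s copies are printed because C1s1 had 29.3 to 33.1 times the value of C1s2 while the 2 genes differed between the groups by 4.24-fold and 4.11-fold. Reads shared by the copies may enter both values, and this was not tested. Capitals mark motif matches.
C1s1, chr6:124542360-124542609, minus strand: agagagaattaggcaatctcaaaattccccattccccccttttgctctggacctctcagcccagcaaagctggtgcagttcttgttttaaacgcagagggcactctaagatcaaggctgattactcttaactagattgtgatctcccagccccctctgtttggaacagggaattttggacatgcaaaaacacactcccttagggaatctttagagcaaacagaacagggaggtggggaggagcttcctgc
C1s2, chr6:124636086-124636335, minus strand: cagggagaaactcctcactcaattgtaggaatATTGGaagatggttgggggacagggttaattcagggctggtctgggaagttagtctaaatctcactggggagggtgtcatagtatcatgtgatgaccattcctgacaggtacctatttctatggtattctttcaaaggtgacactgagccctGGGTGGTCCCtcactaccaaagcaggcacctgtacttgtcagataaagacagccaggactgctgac
The letters of 4 motifs were searched on both strands: a GAS-like motif TTCNNNGAA, an ISRE core of GAAA, any 2 bases and GAAA, the CCAAT box CCAAT, and an NF-kB motif of GGG, any 5 bases and CC. C1s2 had 1 CCAAT box on the other strand, 218 bases before the start, and 1 NF-kB motif, 66 bases before it. The window of C1s1 printed here had none of the 4. A second annotated start of C1s1 had 1 NF-kB motif, 35 bases before it. C1rb had 1 GAS-like motif 119 bases before its start and 1 NF-kB motif at 94 bases, and the windows of C1ra and C1rl had no match. The RefSeq starts of C1ra and C1rb lie inside the genes as the files place them, so 216 of the 250 bases searched for C1ra and 136 of those for C1rb are GENCODE exon. Among all 32851 promoter windows of this length, 7.02% held the GAS-like motif, 2.98% the ISRE core, 33.8% the CCAAT box and 45.8% the NF-kB motif. A match is a string of letters and does not show binding.

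Other complement genes were read from a list of 36, of which 35 could be tested and C8a was at 0 in all libraries. In limma 5 were called higher and 0 lower, and without adjustment 11 lay higher and 2 lower at p under 0.05. The median log2 fold change of the 35 was 0.57, beside -0.04 over all genes tested. C3, the protein on which all pathways converge, had 331118, 313533 and 605459 in apCAFs, against 45517, 47463 and 68680 in nonapCAFs (log2 2.91, SE 0.33, limma adjusted p = 0.0185). It was the most abundant complement gene per length of those compared, with 81134 per kb in apCAFs and 10492 in nonapCAFs. Cfb, described above, was the other alternative pathway gene called.

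A membrane regulator and a collectin were also among the called genes. Cd55, a membrane protein that speeds the decay of C3-cutting enzymes, had 2382, 2304 and 3757 in apCAFs, against 890, 960 and 571 in nonapCAFs (log2 1.80, SE 0.31, limma adjusted p = 0.0427). Colec12, a membrane collectin that acts as a scavenger receptor, had 20416, 20926 and 29898 in apCAFs, against 6704, 6985 and 7795 in nonapCAFs (log2 1.71, SE 0.20, limma adjusted p = 0.0199). For both genes the groups did not overlap.

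The chains of C1q, the part of C1 that recognises targets, had lower values than the C1 protease genes in every library. C1qa had 150, 105 and 165 in apCAFs, against 56, 138 and 69 in nonapCAFs, and did not pass (limma adjusted p = 0.344). C1qb had 133, 99 and 271 in apCAFs, against 67, 130 and 97 in nonapCAFs (limma adjusted p = 0.452), and C1qc had 119, 85 and 122 in apCAFs, against 45, 140 and 59 in nonapCAFs (limma adjusted p = 0.518). The groups overlapped for each chain. Per length, C1qa stood at 135 per kb in apCAFs and 84.3 in nonapCAFs, while C1ra stood at 10931 per kb in apCAFs and 2998 in nonapCAFs. Masp2, the lectin pathway protease that cleaves C4 and C2, had 1027, 854 and 856 in apCAFs, against 1297, 1461 and 1960 in nonapCAFs. Its groups did not overlap, but the difference did not pass (log2 -0.77, SE 0.21, limma adjusted p = 0.129). DESeq2, in the authors' deposited table, gave Masp2 an adjusted p of 0.00112.

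**Figure D5:**
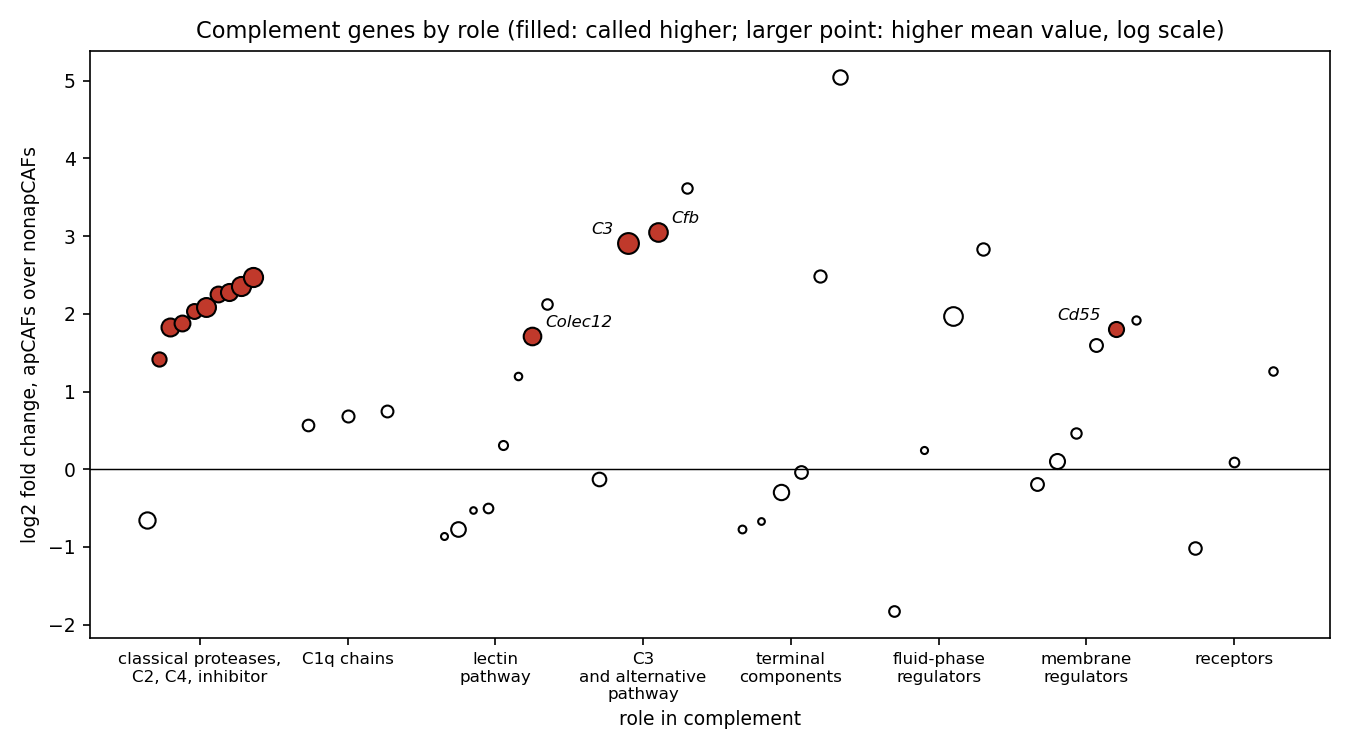
Log2 fold change, apCAFs over nonapCAFs, of the 10 genes and of 34 of the 35 other complement genes tested, by role; filled points were called higher in limma, and larger points have a higher mean value. The 3 C1q chains lie between 0.57 and 0.75 and are not called, while C3 and Cfb lie at 2.91 and 3.05.

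Markers of other cell types differed between the libraries as well. Of 9 mesothelial markers, 7 were called higher, and the values of the 9 summed to 42396, 40331 and 51979 in apCAFs 1, 2 and 3, against 5277 to 6001 in nonapCAFs. Of 6 fibroblast markers, Col1a1 and Col1a2 were called higher, and the sum, most of it collagen, was 2783256, 2761777 and 4145657 in apCAFs 1, 2 and 3, against 1177574 to 1418608 in nonapCAFs. Lum lay the other way, with 11026, 11304 and 8086 in apCAFs and 21256, 19490 and 15611 in nonapCAFs, and did not pass (log2 -0.89, limma adjusted p = 0.0952), though DESeq2 in the authors' deposited table gave it an adjusted p of 3.66e-05. For Col3a1, Dcn and Pdgfrb, higher in apCAFs but not called in limma, DESeq2 gave adjusted p-values of 1.44e-06, 0.000882 and 1.01e-06. Of 16 genes of the interferon-gamma response, 12 were called higher, with sums of 452182 to 471712 in apCAFs, against 158661 to 241610 in nonapCAFs. The part of these cells and responses in the complement values was not tested.

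Macrophages make C1q, and 1 of 10 macrophage markers was called higher in limma, Cd14. The 10 summed to 14250, 13676 and 9270 in apCAFs 1, 2 and 3, against 2362 to 3048 in nonapCAFs. Most of the sum in apCAFs 1 and 2 was Lyz2, with 9898, 9470 and 640 in apCAFs and 470, 1028 and 226 in nonapCAFs, and most of it in apCAFs 3 was Cd14, at 5163, and Csf1r, at 2478. The defining marker Adgre1 had 30, 9 and 27 in apCAFs and 0, 21 and 9 in nonapCAFs. DESeq2, in the authors' deposited table, gave adjusted p-values of 4.12e-09 for Cd14, 0.000124 for Cd68, 0.00221 for Csf1r and 0.00777 for Lyz2. It gave Mrc1 0.0547, Itgam 0.267 and Cx3cr1 0.375, and no adjusted p for Adgre1, Fcgr1 and Marco. Of 9 alveolar type II markers 0 were called in limma, and 0 had an unadjusted p under 0.05, while their sum was 97847 and 81007 in apCAFs 1 and 2, with 8969 in apCAFs 3 and 9018 to 10234 in nonapCAFs. The authors' DESeq2 gave Lamp3 an adjusted p of 0.692 and Etv5 0.677. The other alveolar type II markers had DESeq2 adjusted p-values from 4.28e-06 for Sftpc to 0.0176 for Abca3. The part of either cell type in the complement values was not tested. Hepatocyte markers were at or near 0: Ttr and Fgb were at 0 in all libraries, and Alb and Apoa1 together reached at most 8 in apCAFs and 5 in nonapCAFs.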

How the data were processed

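RNA was sequenced from 3 apCAFs and 3 nonapCAFs libraries made, per the labels' protocols, with the Norgen Single Cell RNA Purification Kit and the NEB Next Ultra RNA Library Prep Kit. Bowtie2, DESeq2, Trim Galore and mm10 appear in the submitters' processing notes, with neither role nor version. Which counter and annotation were used, and whether strand was, is not given in the sources used here. Per the file headers, the deposited values are normalized counts. They are whole numbers. Between 1 and 30, 3 whole numbers are absent from apCAFs 2 and 8 from apCAFs 3, gaps that scaling before rounding can leave, while the other 4 libraries have 0 such gaps. Going by the headers, the deposited values were treated as a score and not as raw counts, and no counting interval can be given. The authors' deposited table also holds log2 values, a fold change as a ratio, and a DESeq2 p-value and adjusted p-value per gene.

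The fit was limma 3.58.1 (R 4.3.3) on log2(value + 1), with a term for group alone, over all 36443 genes that exceeded 0 in any library. Two-sided p-values were adjusted by Benjamini-Hochberg over all of these and called under 0.05. Ratios were tested by exact permutation over the 6 libraries. Fold changes on this scale understate changes of low genes. p-values measure the spread between these libraries, which may be partly technical. The members and gene lists were chosen with earlier results of these data known. Named genes were the 10 members, list genes called or set by name (C1q chains, C3, Masp2), and genes overlapping a member, while the other neighbours were named after their values were seen. In 3 simulated sets of 36443 genes, 30% to 54% of genes changed 2-fold, 66% to 82% changed 4-fold and 78% to 90% changed 8-fold were called. In each set 50 genes were changed at each fold size, up or down at random, drawn from those averaging 100 or more. In the data 1602 genes were called, 1425 of them higher. The share called depends on how many genes change, so these shares need not hold for the data. Noise was drawn independently for each library, so the close pairs seen here were not modelled. Copies were compared by the longest GENCODE M21 transcripts (GRCm38), whose coordinates equal those of the files for all 10 members. No comparison of proteins was made. Of the called genes of the complement list, 1 is not reported here.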

Additional observations from a re-analysis of the deposited data

How the results depend on the processing

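Of 180 member values over 18 alternatives, 120 kept their side of the threshold, 60 lost the adjusted call and 0 changed sign. The 120 include 18 of Masp1, which was not called as reported and so had no call to lose. Each of the 9 called genes kept its call in 10 (C1rl) to 13 (C2) of the 18 alternatives. The number of members called higher, 9 as reported, was 0 with no filter on low values and 0 with close pairs averaged, where limma called 0 of all 36443 genes and 4706 had an unadjusted p under 0.05. Leaving out 1 library gave 0 to 9. With no filter, 55298 genes entered the fit in place of 36443, among them those at 0 in every library. The causes of these changes were not tested.

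Of the complement list, 5 genes were called higher as reported. The count was 8 with a pseudocount of 10, with genes of a mean of at least 10 or 100, and with a term for apCAFs 3 and nonapCAFs 6. It was 10 with a variance trend, 1 with no filter and 0 with close pairs averaged, and with 1 library left out 1 to 6: 1 without apCAFs 1, apCAFs 2, nonapCAFs 4 or nonapCAFs 5, 4 without nonapCAFs 6 and 6 without apCAFs 3. Called lower were 0 as reported, and 1 with a mean of at least 100 or a variance trend. The log2 difference of C1ra over C1rb, -0.05 as reported, was 0.0103 without apCAFs 1, within a range of -0.11 to 0.0103 with 1 library left out. Quantile normalization moved the calls among all genes to 1049 higher and 281 lower, against 1425 and 177 as reported, and the median of all genes by -0.15, while division by library totals moved it by -0.14. No paired analysis was possible because the groups share no replicate number. Depth is unknown, so its limit cannot be stated.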
